A study of Mus musculus with 4 samples.

Results

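The genes described here are 10 named genes of the NRF2 axis, of the thioredoxin system and of NADPH supply, followed in the N9 cell line, immortalised microglia of the mouse. They were taken by gene symbol from array probe sets annotated with exactly 1 symbol, and where several such probe sets existed for a gene, that of highest mean was used. This gave 7 of the 10 genes, out of 22180 genes in all: Nfe2l2, Keap1, Nqo1, Srxn1, Txnrd1, Txn1 and Osgin1. The other 3 were not analysed here. Prdx1 had 3 probe sets, each shared with other symbols in the annotation, and Prdx6 had 0 probe sets under its symbol.

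The series asked what dihydropyridines do to murine microglia. It consisted of 4 arrays: 2 from cells given vehicle, 1 from cells given 10 µM nimodipine and 1 from cells given 20 µM nimodipine, which belongs to the dihydropyridine blockers of L-type calcium channels. All cultures were grown in DMEM with serum and antibiotics. The composition of the vehicle and the length of exposure are not given in the sources used here, nor is it stated which vehicle array belonged to which dose. Each dose had no replicate, and the labels do not say that the vehicle arrays came from separate cultures. Every spread and p-value given here therefore measures differences between these arrays, which may be technical. Where both doses are taken as 1 group, the spread also holds the difference between the doses.

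NRF2, encoded by Nfe2l2, is a transcription factor that KEAP1 captures in the cytoplasm and passes to a ubiquitin ligase for degradation. Oxidants and electrophiles modify cysteines of KEAP1, after which NRF2 accumulates, pairs with small MAF proteins and binds antioxidant response elements in front of its target genes. The targets include the quinone reductase Nqo1, the enzymes that recharge thioredoxin and peroxiredoxins, and enzymes that make NADPH, the reducing currency of both systems. In microglia this programme is known for limiting oxidative damage during inflammatory activation.

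Expression was read as log2 values that the submitters' software had normalised between arrays, so a change common to most genes would stay hidden, and array medians ran from 5.02 to 5.06. All 13 measured markers of microglia and macrophages lay at or above the median level of all probe sets, with a median of 9.93 and 10.05 for vehicle, 9.91 for 10 µM and 9.94 for 20 µM nimodipine. The sum of their log2 values was 128.08 and 127.93 for vehicle, 125.36 for 10 µM and 128.19 for 20 µM. At 10 µM 9 of the 13 were below the vehicle mean, as were 10556 of all 22180 genes and 6607 of the 12794 at or above the median level. Lower by 0.5 or more were 2 of the 13, beside 6.18% of all genes. The largest difference was that of the lipopolysaccharide co-receptor Cd14, at -1.16 (log2). The part of this in the results below was not tested. Markers of other cell types were not all low. Of all 22180 genes, 12794 were at or above the median level, so reaching it says little about a marker. At or above the median level were 2 of 6 astrocyte markers (Aldoc at a mean of 11.13 and Gfap at 5.61), 3 of 6 neuronal markers (Syp at 6.07, Rbfox3 at 5.94 and Syt1 at 5.55), 4 of 5 oligodendrocyte markers (led by Mbp at 7.57) and 3 of 6 fibroblast and endothelial markers (led by Pdgfrb at 5.65). The summed log2 values of the astrocyte list were 33.57 and 33.89 for vehicle, 32.80 for 10 µM and 33.44 for 20 µM. Those of the neuronal list were 31.52 and 31.87, then 31.66 and 32.11, and those of the oligodendrocyte list 28.53 and 28.24, then 28.33 and 28.90. For the fibroblast and endothelial list they were 29.75 and 28.32, then 30.23 and 29.91. The part of these lists in the results was not tested.

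Because NRF2 acts through short DNA elements close to its target genes, the stretch before the transcription start of the 4 measured genes with the largest differences at 10 µM is shown here from RefSeq (GRCm38.p6), 250 bases each, 5′ to 3′ on the gene's own strand. Capitals mark matches to TGACNNNGC, the core of the antioxidant response element, or to TGANTCA, the core shared by AP-1 and NF-E2 type factors, searched on both strands. Of the 3 Txnrd1 windows in the table the one with a match is shown.
Keap1 (chr9:21239333-21239582, minus strand): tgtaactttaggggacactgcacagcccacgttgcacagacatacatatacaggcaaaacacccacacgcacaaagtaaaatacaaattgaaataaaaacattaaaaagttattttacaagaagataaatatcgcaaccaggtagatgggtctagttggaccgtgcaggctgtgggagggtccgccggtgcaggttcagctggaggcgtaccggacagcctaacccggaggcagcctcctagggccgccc
Srxn1 (chr2:152105274-152105523, plus strand): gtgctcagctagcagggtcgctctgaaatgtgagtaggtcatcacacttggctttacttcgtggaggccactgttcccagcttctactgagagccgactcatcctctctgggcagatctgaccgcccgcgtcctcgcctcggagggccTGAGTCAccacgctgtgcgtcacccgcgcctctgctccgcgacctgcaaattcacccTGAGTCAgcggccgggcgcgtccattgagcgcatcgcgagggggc
Txnrd1 (chr10:82858956-82859205, plus strand): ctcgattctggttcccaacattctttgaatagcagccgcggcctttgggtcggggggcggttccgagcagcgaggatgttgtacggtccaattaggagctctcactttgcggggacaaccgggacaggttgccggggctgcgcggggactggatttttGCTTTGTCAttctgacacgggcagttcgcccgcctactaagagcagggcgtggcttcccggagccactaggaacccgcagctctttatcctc
Osgin1 (chr8:119436897-119437146, plus strand): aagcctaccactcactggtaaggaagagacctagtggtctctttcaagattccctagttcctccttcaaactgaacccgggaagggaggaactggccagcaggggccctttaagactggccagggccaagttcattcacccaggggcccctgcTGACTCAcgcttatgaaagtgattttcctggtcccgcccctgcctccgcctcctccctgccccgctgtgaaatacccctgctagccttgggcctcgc

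Srxn1 held TGANTCA at 2 places, from 102 to 96 and from 45 to 39 bases before the start. Osgin1 held it at 1 place, from 97 to 91 bases before the start. The Txnrd1 window held TGACNNNGC on the reverse strand, from 92 to 84 bases before the start. No match to either motif stood in the Keap1 window, which says only that these letters are not in this stretch. In windows that also take in 50 bases after the start, TGACNNNGC was found for 3 of the 7 measured genes (Nfe2l2, Srxn1 and Txnrd1) and for 14.0% of all 27025 genes with a window of that length, and TGANTCA for 2 of 7 (Srxn1 and Osgin1) and 8.97% of genes. The motifs can overlap where TGACTCA is followed by GC. Matches are descriptions of the sequence, and binding was not measured.

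Keap1, the inhibitor of the axis, was the gene of the group that differed most. On its main probe set (17515128) it read 9.74 and 9.37 with vehicle, 8.18 with 10 µM and 9.31 with 20 µM nimodipine (log2 expression). The 10 µM array was the low one, and the 20 µM array lay just under both vehicle arrays. The difference from the vehicle mean was -1.38 at 10 µM, a 2.60-fold lower value, and -0.25 at 20 µM, beside -0.37 between vehicle 2 and vehicle 1. Of the 7 measured genes Keap1 alone reached a log2 difference of 1 at 10 µM, as 1.57% of all genes did. At 20 µM 0 of 7 did, where the share of all genes was 0.0857%, and 0.113% of genes differed that much between the vehicle arrays. Of all genes, 0.573% had a difference at 10 µM as large as that of Keap1. Large differences were more common among brighter genes such as Keap1. Of the 12794 genes at or above the median level, 108 were higher and 225 lower by 1 or more at 10 µM.

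The size of the Keap1 difference depended on the probe set. The other Keap1 probe set (17524659) read 7.87 and 7.89 with vehicle, 7.47 with 10 µM and 7.91 with 20 µM nimodipine. It too had its lowest value at 10 µM, with a log2 difference of -0.40 or 1.32-fold, and it differed by 0.03 at 20 µM, against the sign of the main probe set. Averaged over both probe sets, Keap1 differed by -0.89 at 10 µM and was no longer past 1.

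**Figure D1:**
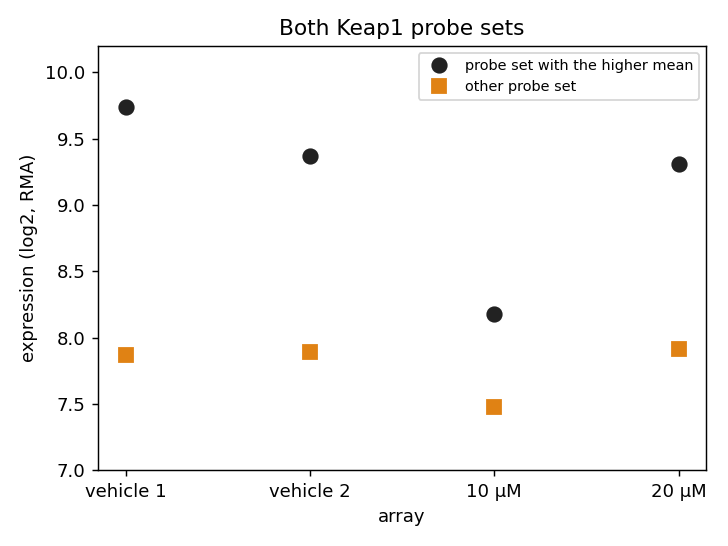
Log2 expression (vertical axis) of both Keap1 probe sets on each of the 4 arrays (horizontal axis); each point is 1 array. Both had their lowest value at 10 µM, 8.18 for the probe set with the higher mean and 7.47 for the other.

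Both doses were also taken as 1 nimodipine group of 2 arrays against the 2 vehicle arrays. There limma gave Keap1 a log2 difference of -0.81 ± 0.37 (SE) and an adjusted p of 0.792, which misses the threshold of 0.05. That was also the smallest adjusted p of any gene in this comparison, and many genes share it. The spread of the nimodipine group here holds the difference between the doses, so a difference at 1 dose only widens the SE. A limma fit of 3 groups was an alternative that assumes the single arrays vary like the vehicle pair (residual df 1). The spread it uses for a gene comes mostly from all genes rather than from that gene's vehicle pair (prior df 4.88 against residual df 1). There the contrast of 10 µM with vehicle called Keap1 lower (-1.38 ± 0.20, limma SE, adjusted p = 0.0416) and left the other 6 genes uncalled, beside 1.59% of all genes called. With the other Keap1 probe set in its place the adjusted p was 0.244. The difference between the doses in Keap1, 1.13 higher at 20 µM, had an adjusted p of 0.123 in that fit, where 0.316% of genes were called between the doses.

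Nfe2l2 itself varied little. It read 9.72 and 9.83 with vehicle, 9.67 with 10 µM and 9.87 with 20 µM nimodipine. The 10 µM array was just below both vehicle arrays and the 20 µM array just above both, with differences of -0.10 and 0.09 that were smaller than the 0.11 between the vehicle arrays. For nimodipine as 1 group the difference was -0.01 ± 0.14 (limma SE, adjusted p = 0.997). The transcript level gives no measure of the NRF2 protein, which is controlled largely by degradation.

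**Figure D2:**
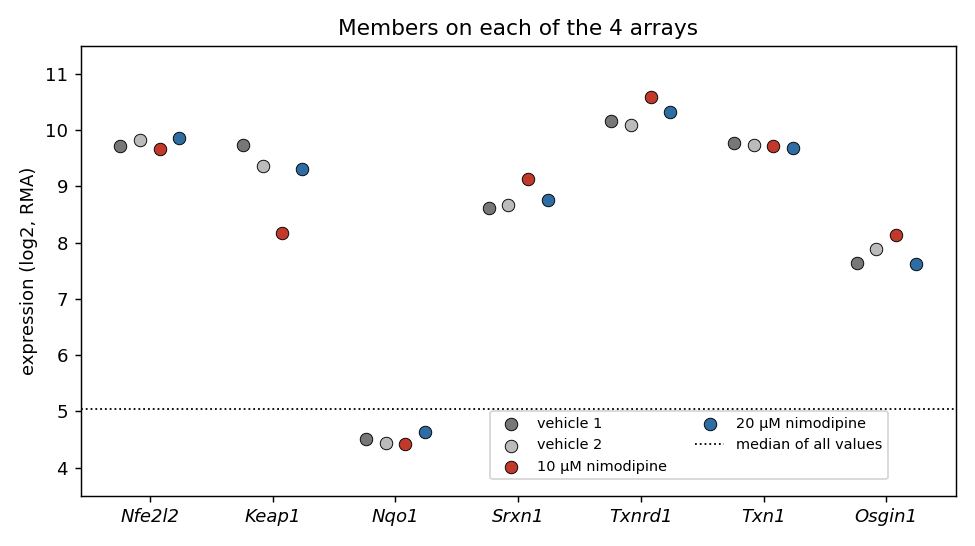
Log2 expression (vertical axis) of the 7 measured genes (horizontal axis), 1 point per array, with the median of all values as a dotted line. Keap1 is lowest at 10 µM (8.18), Srxn1 and Txnrd1 are highest at 10 µM (9.14 and 10.59), and all 4 Nqo1 values lie below the line; probe sets differ in their response, so heights are comparable within a gene only.

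Among the targets, Srxn1 and Txnrd1 were highest at 10 µM. Srxn1 encodes sulfiredoxin, which repairs overoxidised peroxiredoxins. It read 8.62 and 8.67 with vehicle, 9.14 with 10 µM and 8.75 with 20 µM nimodipine. Either nimodipine array exceeded both vehicle readings, by 0.50 (1.41-fold) at 10 µM and 0.11 (1.08-fold) at 20 µM against the vehicle mean, while the vehicle arrays differed by 0.05. As large a difference was present in 10.3% of genes at 10 µM and in 56.6% at 20 µM. Grouped over the doses it was 0.30 ± 0.17 higher (limma SE, adjusted p = 0.792), and in the fit of 3 groups the adjusted p at 10 µM was 0.175.

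Txnrd1 encodes cytosolic thioredoxin reductase, a selenoprotein that uses NADPH to reduce thioredoxin. It read 10.17 and 10.10 with vehicle, 10.59 with 10 µM and 10.32 with 20 µM nimodipine. Again either nimodipine array exceeded both vehicle readings, with differences of 0.46 (1.37-fold) at 10 µM and 0.18 (1.14-fold) at 20 µM beside -0.07 between the vehicle arrays. At 10 µM 12.7% of genes differed by as much, and at 20 µM 35.1%. The grouped difference was 0.32 ± 0.15 (limma SE, adjusted p = 0.792), and the adjusted p at 10 µM in the fit of 3 groups was 0.205.

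Osgin1, an oxidative stress-induced growth inhibitor and NRF2 target, was above both vehicle arrays at 10 µM and below both at 20 µM, there close to vehicle 1. It read 7.65 and 7.88 with vehicle, 8.13 with 10 µM and 7.61 with 20 µM nimodipine. The difference from the vehicle mean was 0.37 (1.29-fold) at 10 µM and -0.15 at 20 µM, beside 0.23 between the vehicle arrays. At 10 µM 19.1% of genes differed by as much, and at 20 µM 44.1%. Grouped over the doses it was 0.11 ± 0.20 (limma SE, adjusted p = 0.932).

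Txn1, the cytosolic thioredoxin that Txnrd1 reduces, hardly varied. It read 9.77 and 9.74 with vehicle, 9.72 with 10 µM and 9.69 with 20 µM nimodipine. Both nimodipine arrays were below both vehicle arrays, by 0.02 to 0.08 from any single vehicle array, and 88.5% of genes had as large a difference from the vehicle mean at 10 µM. The grouped difference was -0.05 ± 0.12 (limma SE, adjusted p = 0.950).

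Nqo1, the quinone reductase often used to read NRF2 activity, read 4.50 and 4.43 with vehicle, 4.42 with 10 µM and 4.63 with 20 µM nimodipine. All 4 values lay below the median of all values (5.04). No detection call accompanies these values, so a difference on this probe set can be understated. The 20 µM array was the high one, at 0.16 above the vehicle mean, while the difference at 10 µM was -0.04 and that between the vehicle arrays -0.07. Grouped over the doses it was 0.06 ± 0.14 (limma SE, adjusted p = 0.948).

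**Figure D3:**
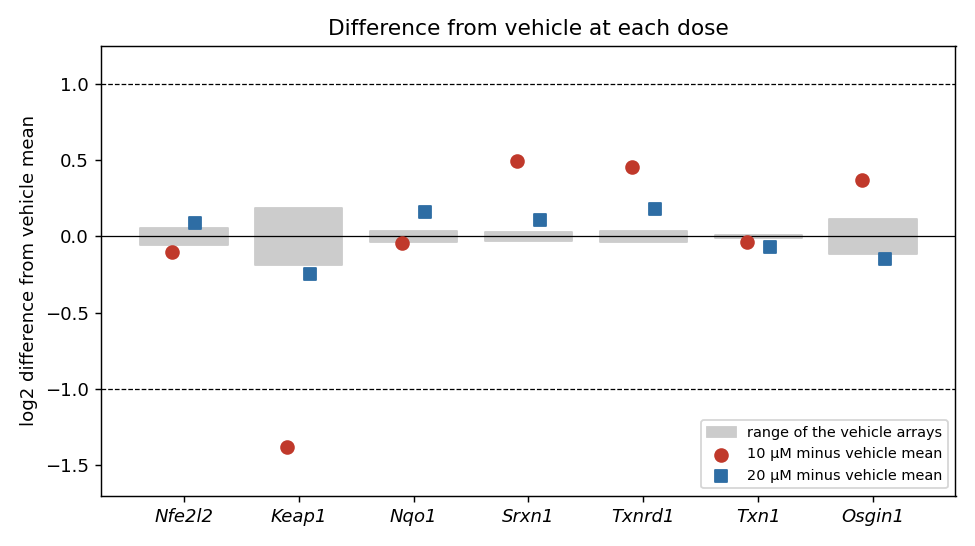
Log2 difference from the vehicle mean (vertical axis) for the 7 measured genes at 10 µM (circles) and 20 µM (squares); grey boxes span the 2 vehicle arrays and dashed lines mark a difference of 1 either way. Only Keap1 at 10 µM lies past a dashed line (-1.38), and at 20 µM every gene lies within 0.25 of the vehicle mean.

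Across the 7 genes, 3 were above both vehicle arrays at 10 µM (Srxn1, Txnrd1 and Osgin1) and 4 below both, and of all genes 39.1% and 35.4% were. At 20 µM 4 were above and 3 below, beside 34.5% and 35.1% of genes. These counts are near the background and are no result about the group. The doses lay on opposite sides of both vehicle readings for 3 of 7 genes (Nfe2l2, Nqo1 and Osgin1), beside 18.9% of all genes. At 10 µM the difference exceeded the gap between the vehicle arrays for 5 of 7 genes, beside 57.1% of all genes, and at 20 µM for 4 of 7, beside 48.7%. Absolute differences at 20 µM lay between 0.07 and 0.25. The median over the 7 genes was -0.03 at 10 µM and 0.09 at 20 µM, beside 0.01 and 0.00 over all genes. In the grouped comparison, whose spread holds the difference between the doses, limma called 0 of 22180 genes (0%). An unadjusted p under 0.05 was found for 1191 genes (5.37%), and 0 of the 7 genes were among these. The smallest unadjusted p of the 7 was 0.0671, for Keap1.

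The pathway around these genes was followed in 7 further lists, of which 87 of 95 genes were measured. These lists were chosen with earlier results of these data known, so their counts beside those of all genes are descriptions only. At 10 µM 5 of the 87 were higher by 1 or more and 0 were lower by as much, beside 0.514% and 1.06% of all genes. At 20 µM 0 of the 87 were past 1 in either direction. Of the 87, 56 exceeded the vehicle mean at 10 µM and 44 did at 20 µM, where 52.4% and 49.3% of all genes did. These shares over all genes, whatever their level, also stand for the single lists. The median of the 87 was 0.05 at 10 µM and 0.00 at 20 µM, beside 0.01 and 0.00 over all genes. In the grouped comparison limma called 0 of the 87 genes. At a limit of 0.5, 15 of the 87 were past it at 10 µM and 2 at 20 µM, beside 10.1% and 2.74% of all genes. Of the 87, 79 lay at or above the median level, where large differences were more common at 10 µM. Among all 12794 genes at that level, 6187 exceeded the vehicle mean at 10 µM and 5778 did at 20 µM, fewer than the shares over all genes. By 0.5 or more, 619 of them were higher and 1249 lower at 10 µM. By 1 or more, 108 of them were higher and 225 lower at that dose. The adjusted p values of single pathway genes that follow are for 10 µM against vehicle in the limma fit of 3 groups. In the grouped comparison the smallest adjusted p of any of the 87 was 0.792, which was also the smallest over all genes.

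Of the partners and regulators of NRF2, 8 of 13 exceeded the vehicle mean at 10 µM, with a median of 0.02, and 7 of 13 did at 20 µM, beside 52.4% and 49.3% of all genes. Sqstm1, the autophagy receptor p62 that can bind KEAP1 and draw it into autophagy, read 10.43 and 10.36 with vehicle, 11.90 with 10 µM and 10.56 with 20 µM nimodipine. The 10 µM value was 2.84-fold above the vehicle mean (adjusted p = 0.0197 in the fit of 3 groups), and the 20 µM value 1.12-fold above it. Nfe2l1, which encodes the related factor NRF1 that governs proteasome genes, stood at 8.02 and 7.97, then 9.35 at 10 µM and 8.14 at 20 µM. It was 2.56-fold higher at 10 µM (adjusted p = 0.0222 in that fit). Dpp3, a peptidase that binds KEAP1, was 1.53-fold lower at 10 µM (adjusted p = 0.120). The ubiquitin ligase scaffold Cul3, through which KEAP1 acts, differed by 0.01 at 10 µM and -0.02 at 20 µM, and the competing repressor Bach1 by -0.01 and -0.10, respectively.

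The 26 other NRF2 targets of detoxification and of glutathione, heme and iron handling were split. At 10 µM 18 exceeded the vehicle mean and 8 did not, beside 52.4% of all genes that did, the median being 0.09, and 3 were higher and 2 lower by 0.5 or more, beside 3.92% and 6.18% of all genes. At 20 µM 11 exceeded it and 15 did not, beside 49.3% of all genes that did, the median being -0.04. Gsta3, a glutathione transferase, was 2.53-fold higher at 10 µM (adjusted p = 0.0222 in the fit of 3 groups), with readings of 7.24 and 7.25 for vehicle, 8.59 for 10 µM and 7.43 for 20 µM. Slc7a11, the cystine importer, was 2.37-fold higher at 10 µM (adjusted p = 0.0277), at 8.04 and 7.97, then 9.25 and 8.08. Slc7a11 is known as a target of both NRF2 and ATF4. Hmox1, the heme oxygenase, went the other way: it read 11.32 and 11.28 with vehicle, 10.53 with 10 µM and 10.93 with 20 µM. That is 1.70-fold under the vehicle mean at 10 µM (adjusted p = 0.0737 in that fit) and 1.29-fold under it at 20 µM. Gclc, the catalytic subunit of glutamate-cysteine ligase in glutathione synthesis, was 1.42-fold lower at 10 µM. Its limma adjusted p in the grouped comparison was 0.802.

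Of the 18 genes of the thioredoxin and glutaredoxin system, 12 exceeded the vehicle mean at 10 µM and 10 did at 20 µM, beside 52.4% and 49.3% of all genes, with medians of 0.04 and 0.01. None reached a difference of 1 at either dose. Glrx, the cytosolic glutaredoxin, was 1.52-fold lower at 10 µM (adjusted p = 0.126 in the fit of 3 groups) and Rrm2, a subunit of the ribonucleotide reductase that takes electrons from these proteins, 1.46-fold lower (adjusted p = 0.211). Txnip, the inhibitor of thioredoxin, differed by -0.06 and 0.11. The mitochondrial counterparts of the thioredoxin pair, Txn2 and Txnrd2, differed by 0.48 and 0.04 at 10 µM.

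Of the 8 other peroxiredoxins and glutathione peroxidases, 6 exceeded the vehicle mean at each dose, with medians of 0.11 and 0.02, and 0 differed by 0.5 or more. Of the 4 genes of the superoxide dismutase list, Sod2, the mitochondrial enzyme, was 1.42-fold higher at 10 µM (adjusted p = 0.174), while the cytosolic Sod1 differed by 0.05. Among 13 NADPH-producing and pentose phosphate genes, 7 exceeded the vehicle mean at 10 µM (median 0.06) and 8 did at 20 µM (median 0.01). Me1, the cytosolic malic enzyme, was 1.67-fold higher at 10 µM (adjusted p = 0.0879) and Rpia, which isomerises ribose 5-phosphate, 1.54-fold higher (adjusted p = 0.128). Idh1, the cytosolic NADP-dependent isocitrate dehydrogenase, was 1.72-fold lower (adjusted p = 0.0710). Pgd, a dehydrogenase of the pentose phosphate pathway, differed by -0.04 at 10 µM and 0.10 at 20 µM. In the list of 5 other quinone and flavin reductases, Cyb5r1, a cytochrome b5 reductase, was 3.75-fold higher at 10 µM (adjusted p = 0.0136 in the fit of 3 groups), with readings of 8.26 and 8.06 for vehicle, 10.07 for 10 µM and 8.08 for 20 µM.

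**Figure D4:**
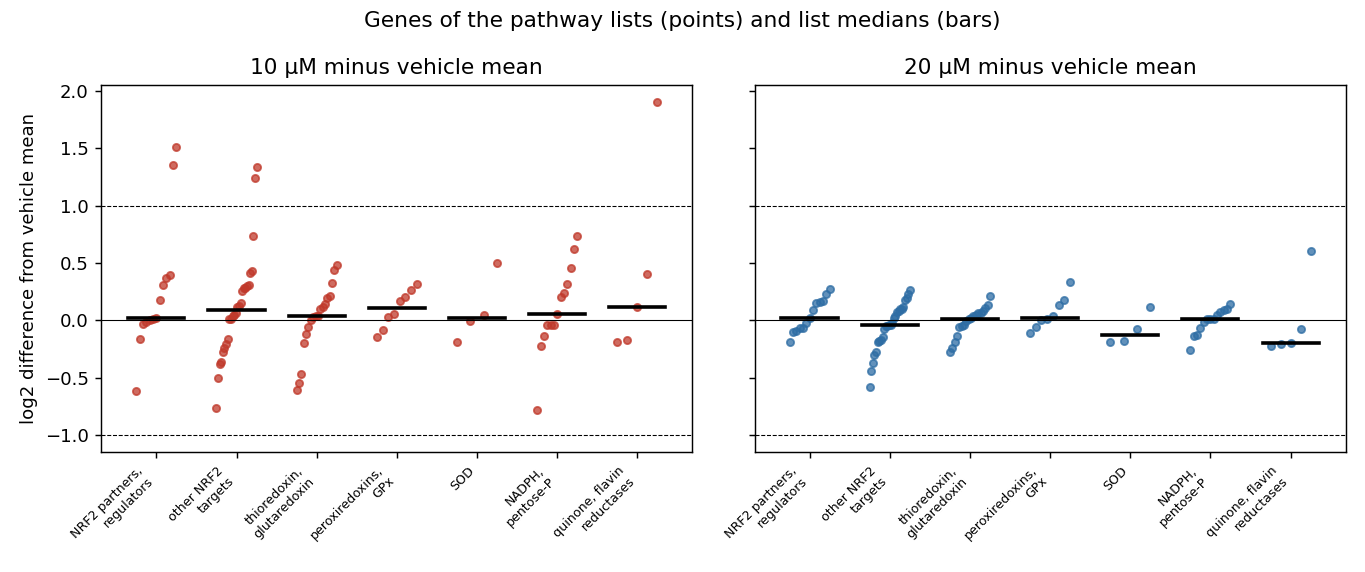
Log2 difference from the vehicle mean (vertical axis) of each gene in the 7 pathway lists (horizontal axis) at 10 µM (left) and 20 µM (right); points are genes, bars are list medians and dashed lines mark a difference of 1. At 10 µM 5 genes lie above the upper line, led by Cyb5r1, and at 20 µM 0 genes lie past either line.

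Genes with the pattern most like a measured member were sought for Keap1, Srxn1 and Txnrd1, by the Euclidean distance between the 4 values of each gene less its own vehicle mean, over the 4 arrays and 11459 candidate genes. Nearest to Keap1 were Arrdc3 (distance 0.06), Tnrc18 (0.12) and Ctdspl (0.16), where the length of the Keap1 pattern itself was 1.43. Arrdc3 read 9.66 and 9.28 with vehicle, 8.14 with 10 µM and 9.25 with 20 µM nimodipine. Nearest to Srxn1 were Sod2 (0.02), Mob2 (0.03) and Etfb (0.04), and nearest to Txnrd1 were Sarnp (0.02), Ndufb9 (0.03) and Zswim7 (0.04). With 4 arrays and 11459 candidates, close matches of this kind are a description only.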

How the data were processed

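RNA of 4 samples was measured on Affymetrix arrays. The authors deposited log2 expression values per probe set, which came from RMA run in Affymetrix Expression Console (version 1.2.1.20), per the submitters' processing notes. TRIzol extraction and the WT PLUS labelling kit are named in the labels' protocols. RMA levels the arrays by quantile normalisation.

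The table held 41345 probe sets. The platform annotation gave 1 symbol to 23521, several to 1814, and did not list 16010. RefSeq (GRCm38.p6) held 23328 of the first by Entrez identifier, and 0 symbols were updated. The probe set with the highest mean stood for a gene, and 1082 genes had several.

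Each dose was set against the mean of both vehicle arrays, with no test, and a log2 difference of 1 counted as a call. Nimodipine (2 arrays) was compared with vehicle (2 arrays) by limma 3.58.1 in R 4.3.3 (lmFit, eBayes, Benjamini-Hochberg over 22180 genes, threshold 0.05). The fits were tested on simulated data. The fit of 3 groups, other scalings, a filter on dim genes, other eBayes settings and leaving out each array were alternatives. The number of arrays limits the precision. No depth applies to arrays.

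The genes and lists were chosen with earlier results of these data known. Beside the 7 genes, the text names from each list up to 2 genes each way with the largest differences of 0.5 or more at 10 µM among genes at or above the median level, and 3 nearest genes for each of the 3 members that differed most. Predicted genes, clone names and small RNAs were passed over in the latter. Cul3, Bach1, Txnip, Txn2, Txnrd2, Sod1 and Pgd were named for their role after their values were seen. Some items are not reported here.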

Additional observations from a re-analysis of the deposited data

Results flagged for a closer look

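For 3 of the 7 measured genes the 2 doses lay on opposite sides of both vehicle arrays, as they did for 18.9% of all genes. Osgin1 was 0.52 lower at 20 µM than at 10 µM (log2 difference of -0.52), Nqo1 differed between the doses by 0.21 and Nfe2l2 by 0.20. With 1 array per dose these differences have no replicate; in the limma fit of 3 groups, whose spread comes mostly from all genes (prior df 4.88 against residual df 1), their adjusted p values were 0.324, 0.663 and 0.696. The gap between the vehicle arrays was 0.23 for Osgin1, -0.07 for Nqo1 and 0.11 for Nfe2l2.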

How the results depend on the processing

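At 10 µM all 7 genes kept the sign of their difference from vehicle under every alternative that gave a value. There were 7 alternatives, or 6 for Nqo1, which the filter on dim genes left out. At 20 µM so did all but Keap1, which turned to 0.03 on its other probe set, a choice added after seeing the data. Most of these alternatives could not change a sign. Each gene lay outside both vehicle readings at either dose, as 74.5% of all genes did at 10 µM and 69.6% at 20 µM. Either vehicle array alone as the reference therefore kept the sign. The probe set alternatives altered Keap1 alone, and the filter altered no value. For the other genes only the other scalings could have changed a sign. Keap1 lay between -1.57 and -0.40 at 10 µM. The count of members past 1 there went from 1 to 0 with the mean of the probe sets, with the other Keap1 probe set, and with that probe set in the limma fit of 3 groups. In the grouped comparison Nfe2l2 turned from -0.01 to 0.016 with loess, and lay between -0.10 and 0.091 when each array was left out (0.05 without vehicle 2, 0.091 without the 10 µM array). Osgin1 turned from 0.11 to -0.01 without vehicle 1 and -0.15 without the 10 µM array (range -0.15 to 0.37). Nqo1 turned from 0.06 to -0.045 without the 20 µM array (range -0.045 to 0.16). Leaving out 1 nimodipine array leaves the difference at the other dose, and leaving out 1 vehicle array leaves the other as the reference. Why the arrays differed was not tested. Leaving out each array gave between 0 and 353 genes called by limma. The 353 came without the 20 µM array, with Keap1 among them (adjusted p = 0.0416), and equal the fit of 3 groups. Over all genes, those past 1 at 20 µM numbered 19, or 38 against vehicle 1, 37 against vehicle 2 and 0 called in the limma fit of 3 groups (1418 at an unadjusted p under 0.05). Between the vehicle arrays 25 became 6 without dim genes. With a difference of 0.5 as the limit, the dose counts were 2240 (10 µM) and 608 (20 µM), beside 794 for one vehicle array against the other, and for the pathway lists 15 and 2 genes at the respective doses. No paired analysis was possible because the nimodipine arrays carry no replicate number and each dose has 1 array. Low signal limits Nqo1, the 1 member below the median level.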

Other observations

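The genes of this paragraph were picked after their values were seen. The subunits of glutamate-cysteine ligase, the first enzyme of glutathione synthesis, differed in opposite directions at 10 µM. The modifier subunit Gclm read 8.80 and 8.89 with vehicle, 9.58 with 10 µM and 8.57 with 20 µM nimodipine, a 1.66-fold higher value at 10 µM, while the catalytic subunit Gclc stood at 9.44 and 9.41, then 8.92 and 9.39. Gclm at 20 µM was below both vehicle arrays. Catalase (Cat), the peroxisomal enzyme that splits hydrogen peroxide, was likewise above both vehicle arrays at 10 µM and below both at 20 µM. It read 11.74 and 11.49, then 12.03 and 11.32. Its differences were 0.41 at 10 µM and -0.30 at 20 µM, beside -0.26 between the vehicle arrays. Of all genes, 18.9% had the doses on opposite sides of both vehicle arrays.

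At 20 µM 2 of the 87 pathway genes differed by 0.5 or more, beside 2.74% of all genes. Cbr1, a carbonyl reductase, read 9.22 and 9.18 with vehicle, 8.95 with 10 µM and 8.62 with 20 µM nimodipine, and its difference was larger at 20 µM (-0.58) than at 10 µM (-0.25). Vat1, of the quinone reductase family, read 9.63 and 10.06 with vehicle, 10.25 with 10 µM and 10.45 with 20 µM nimodipine, a difference of 0.60 at 20 µM beside 0.42 between the vehicle arrays. In the grouped comparison limma called 0 of all 22180 genes, so the lack of a call there is not particular to Cbr1 and Vat1.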
